A study of Mus musculus with 8 samples.

Results

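Voltage-gated calcium and sodium channels are described here through 37 genes whose symbols begin with Cacn, or with Scn followed by a digit, out of 23523 genes and unnamed transcripts in the table. Of these, 26 encode calcium channel subunits and 11 encode sodium channel subunits. They divide into 10 calcium pore-forming, 4 alpha2delta, 4 calcium beta and 8 gamma subunits, with 8 sodium pore-forming and 3 sodium beta subunits. RNA was sequenced from 5 mouse glioblastomas and 3 normal mouse brains. The tumours had been induced by a lentivirus encoding the oncogene HrasG12V together with an shRNA directed at p53, and were taken once the mice met clinical endpoints, as GFP+ tissue dissected free of surrounding normal brain. The normal brain samples carry no genotype or treatment in the labels. The strain, age, promoter and infected cell type of the model, and the region of the normal brains, are not stated in the labels. Whether replicates are separate animals is likewise unstated, and the p-values therefore measure only the spread between these libraries, which may be technical.

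Voltage-gated channels open when the membrane depolarises. Sodium channels carry the upstroke of the action potential, and calcium channels turn the electrical signal into calcium entry that triggers transmitter release, shapes firing and reaches the nucleus. The pore-forming alpha subunit carries the voltage sensor and the ion path, while auxiliary subunits set how many channels reach the membrane and how they gate. In brain these genes are best known from neurons, although several are also used by glia, muscle and vessel cells, and most gamma subunits act mainly on AMPA-type glutamate receptors.

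A promoter window is shown for each of a pore-forming subunit, an auxiliary subunit and the gamma subunit with the highest fold change. The windows shown differ widely in CpG content, although both genes of the first pair were lower in the tumours. Each is the RefSeq window of 300 bases, from 250 before to 50 after an annotated start on GRCm38.p6, written 5′ to 3′ on the strand of the gene with CpG dinucleotides in capitals. The Scn8a window lies at chr15:100870395-100870694 on the plus strand and holds 38 CpG sites. The Scn2b window at chr9:45117626-45117925 on the plus strand holds 2, and the Cacng5 window at chr11:107915006-107915305 on the minus strand holds 17. Scn8a and Cacng5 had 2 windows listed each, and the window with more CpG sites is shown. Their other windows hold 12 and 5 sites, and Scn2b had 1 window listed.
Scn8a: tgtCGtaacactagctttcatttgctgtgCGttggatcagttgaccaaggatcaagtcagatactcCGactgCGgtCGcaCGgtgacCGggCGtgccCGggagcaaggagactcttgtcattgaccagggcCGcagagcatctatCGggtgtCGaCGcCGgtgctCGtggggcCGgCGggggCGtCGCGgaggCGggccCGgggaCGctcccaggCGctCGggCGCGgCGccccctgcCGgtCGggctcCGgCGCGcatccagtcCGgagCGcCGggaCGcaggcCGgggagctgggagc
Scn2b: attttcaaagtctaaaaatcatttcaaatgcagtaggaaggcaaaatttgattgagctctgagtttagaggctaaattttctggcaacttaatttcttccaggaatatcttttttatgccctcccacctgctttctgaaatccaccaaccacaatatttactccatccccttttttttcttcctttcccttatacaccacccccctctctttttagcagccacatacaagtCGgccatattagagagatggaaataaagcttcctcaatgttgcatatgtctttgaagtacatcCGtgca
Cacng5: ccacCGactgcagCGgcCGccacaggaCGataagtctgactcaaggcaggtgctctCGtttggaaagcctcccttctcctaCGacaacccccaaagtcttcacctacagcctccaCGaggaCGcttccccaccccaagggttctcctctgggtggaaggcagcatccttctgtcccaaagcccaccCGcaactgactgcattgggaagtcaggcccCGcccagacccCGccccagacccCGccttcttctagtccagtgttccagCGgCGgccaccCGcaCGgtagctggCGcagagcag

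Library totals ran from 5490351 to 15564280 assigned fragments. Hras, carried by the vector, was higher in the tumours (log2 fold change 2.05 ± 0.19, SE; edgeR adjusted p = 1.9e-05), and Trp53, the hairpin target, was not past the threshold (-0.46 ± 0.35; adjusted p = 0.262). Among 10 neuron markers 7 were lower in the tumours, with summed levels of 238 to 539 FPKM in tumours and 2991 to 3431 FPKM in brains. The other 3, Stmn2, Nefl and Nefm, were not past the threshold. Their tumour means were 69.4%, 66.2% and 71.2% of the brain means, and tumours and brains overlapped for each. FPKM is the fragment count scaled to transcript length and library depth. All 6 oligodendrocyte markers and 5 of 6 astrocyte markers were also lower. All 6 microglia and macrophage markers and 4 of 5 endothelial markers were higher. Over all 14641 tested genes, 33.9% were called lower and 37.1% higher. In pieces of tissue, fewer cells of a type and less RNA per cell cannot be told apart, so every level below is a level in the whole sample.

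Almost all channel genes that could be tested were lower in glioblastoma. Of the 37 genes, 30 passed the filter on low counts, and 28 of these were lower, 0 were higher and 2 were not past the threshold (edgeR quasi-likelihood test, Benjamini-Hochberg adjusted p under 0.05). The 28 are 93.3% of the tested channel genes, against 33.9% of all 14641 tested genes called lower, 37.1% called higher and 71.0% called in either direction. None of the 30 was higher at an unadjusted p under 0.05, and DESeq2 and limma also called 0 higher. Without the filter, 1 of the 37, Scn4a, was higher at an unadjusted p under 0.05 and not after adjustment. The median log2 fold change was -3.63, against 0.06 over all tested genes. The falls ranged from 3.33-fold to 103-fold, and 18 of the 30 were lower by at least 8-fold, against 9.55% of all tested genes. Tumours and brains did not overlap for 28 of the 30, against 70.6% of all tested genes.

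Pore-forming and auxiliary subunits had similar medians. All 13 tested pore-forming genes were lower, with a median log2 fold change of -3.65, and of 17 tested auxiliary genes 15 were lower, with a median of -3.62. By role the medians were -3.23 for calcium pores, -3.32 for alpha2delta, -3.28 for calcium beta, -2.77 for gamma, -4.88 for sodium pores and -5.28 for sodium beta subunits. Differences between these roles were not tested.

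**Figure D1:**
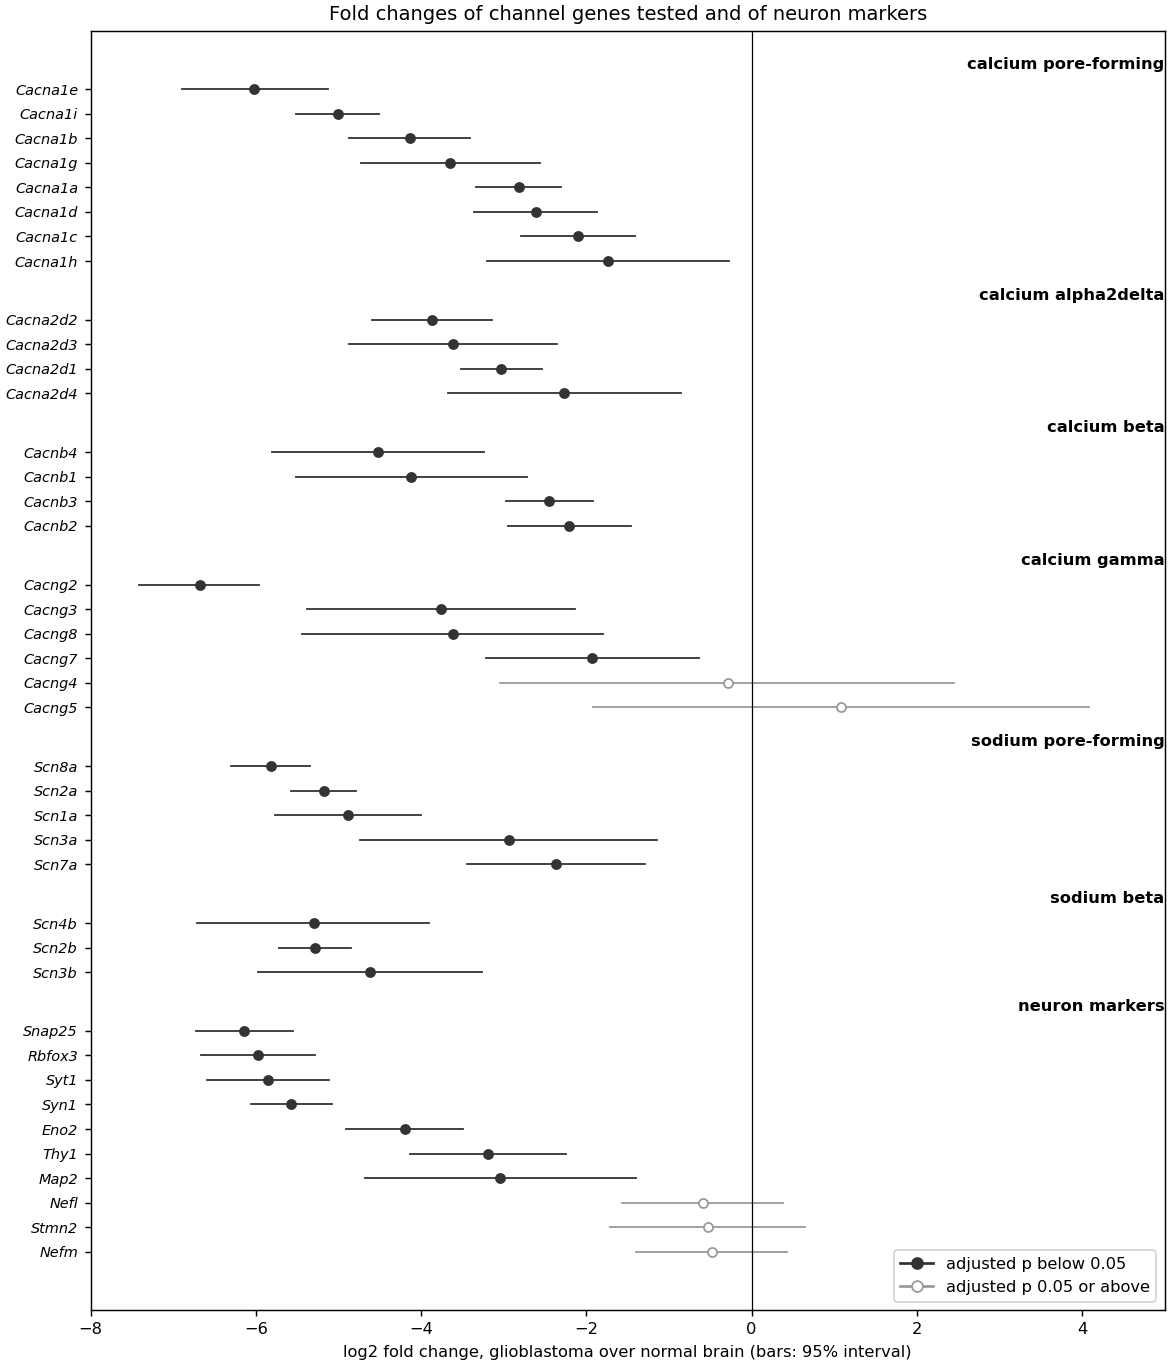
Log2 fold change of glioblastoma over normal brain (x axis) with its 95% interval for each of the 30 tested channel genes, grouped by role, and for the 10 neuron markers below them. Open grey points are genes not past the threshold. Among channel genes the intervals of Cacng4 and Cacng5 span 0, and the other 28 points and intervals lie below 0.

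All 8 tested calcium pore-forming genes were lower in the tumours. Summed over the 10 genes of the role, tumours 1 to 5 had 11.9, 7.04, 8.44, 11.1 and 9.62 FPKM, and brains 1 to 3 had 107, 127 and 133 FPKM. The tumour mean was 7.86% of the brain mean, and no tumour came near a brain. Cacna1e, the pore of the R-type channel of dendrites and presynaptic terminals, changed most. It was measured at 1.22, 0.488, 0.675, 0.612 and 1.24 FPKM in tumours 1 to 5, against 42.6, 60.9 and 62.9 FPKM in the brains. Every tumour was far below every brain, and the log2 fold change was -6.02 ± 0.36 (SE; edgeR adjusted p = 2.5e-06), a 64.7-fold fall.

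The pores of the presynaptic channels that trigger transmitter release fell by different amounts. Cacna1b, the N-type pore, stood at 1.03, 0.728, 0.917, 0.615 and 1.58 FPKM in tumours 1 to 5 and at 15.4, 16.0 and 20.4 FPKM in the brains (log2 fold change -4.14 ± 0.30; edgeR adjusted p = 6.1e-06). Cacna1a, the P/Q-type pore, stood at 1.87, 1.98, 1.03, 2.01 and 1.54 FPKM in tumours 1 to 5 and at 12.1, 11.6 and 12.5 FPKM in the brains (-2.82 ± 0.21; adjusted p = 6.8e-06). Tumours and brains were apart for both genes, with all tumours at low and similar levels.

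L-type pores couple depolarisation to gene transcription in neurons and to contraction in muscle. Cacna1c, the L-type pore most abundant in brain and also the pore of vascular smooth muscle, was at 3.75, 1.73, 3.77, 1.83 and 2.89 FPKM in tumours 1 to 5 and at 10.8, 12.7 and 12.9 FPKM in the brains. Its log2 fold change was -2.10 ± 0.28 (SE; edgeR adjusted p = 1.9e-04), the second smallest fall of the role, and tumours 1 and 3 were highest. Of 6 pericyte and smooth muscle markers, 4 were higher, Myh11 was lower (-1.16 ± 0.42) and Rgs5 was not past the threshold. They summed to 142, 189, 371, 77.3 and 271 FPKM in tumours 1 to 5, against 39.2 to 43.4 FPKM in brains. Acta2 alone held 261 FPKM of the sum in tumour 3. The part of these cells in the Cacna1c level was not tested. Cacna1d, an L-type pore that opens at more negative voltages and supports pacemaking, was at 1.58, 0.882, 0.798, 1.96 and 1.02 FPKM in tumours 1 to 5 and at 6.82, 8.16 and 8.22 FPKM in the brains (-2.61 ± 0.31; adjusted p = 8.4e-05), without overlap.

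The T-type pores open close to the resting potential and support burst firing. Cacna1i, known from thalamic reticular neurons, was nearly level among the tumours at 0.244, 0.181, 0.260, 0.202 and 0.250 FPKM, against 9.46, 6.57 and 6.32 FPKM in the brains (log2 fold change -5.01 ± 0.21; edgeR adjusted p = 4.3e-07). Cacna1g, known from thalamic relay neurons, was at 0.352, 0.614, 0.256, 0.794 and 0.171 FPKM in tumours 1 to 5 and at 5.89, 4.90 and 5.75 FPKM in the brains (-3.65 ± 0.44; adjusted p = 1.1e-04). Neither gene overlapped between the groups.

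Cacna1h, the T-type pore also found in sensory neurons and smooth muscle, had the smallest fall of the calcium pores. It was at 1.74, 0.349, 0.626, 3.01 and 0.855 FPKM in tumours 1 to 5 and at 4.0, 5.82 and 3.72 FPKM in the brains. Tumours 1 and 4 were highest, and tumour 4 lay just below the lowest brain. The log2 fold change was -1.74 ± 0.60 (SE; edgeR adjusted p = 0.0276). The call was lost without tumour 3 (-1.55; adjusted p = 0.0520), tumour 5 (-1.60; 0.0604), brain 1 (-1.82; 0.0532) or brain 2 (-1.52; 0.0926), and when scaling used library size only (-1.56; 0.0531).

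**Figure D2:**
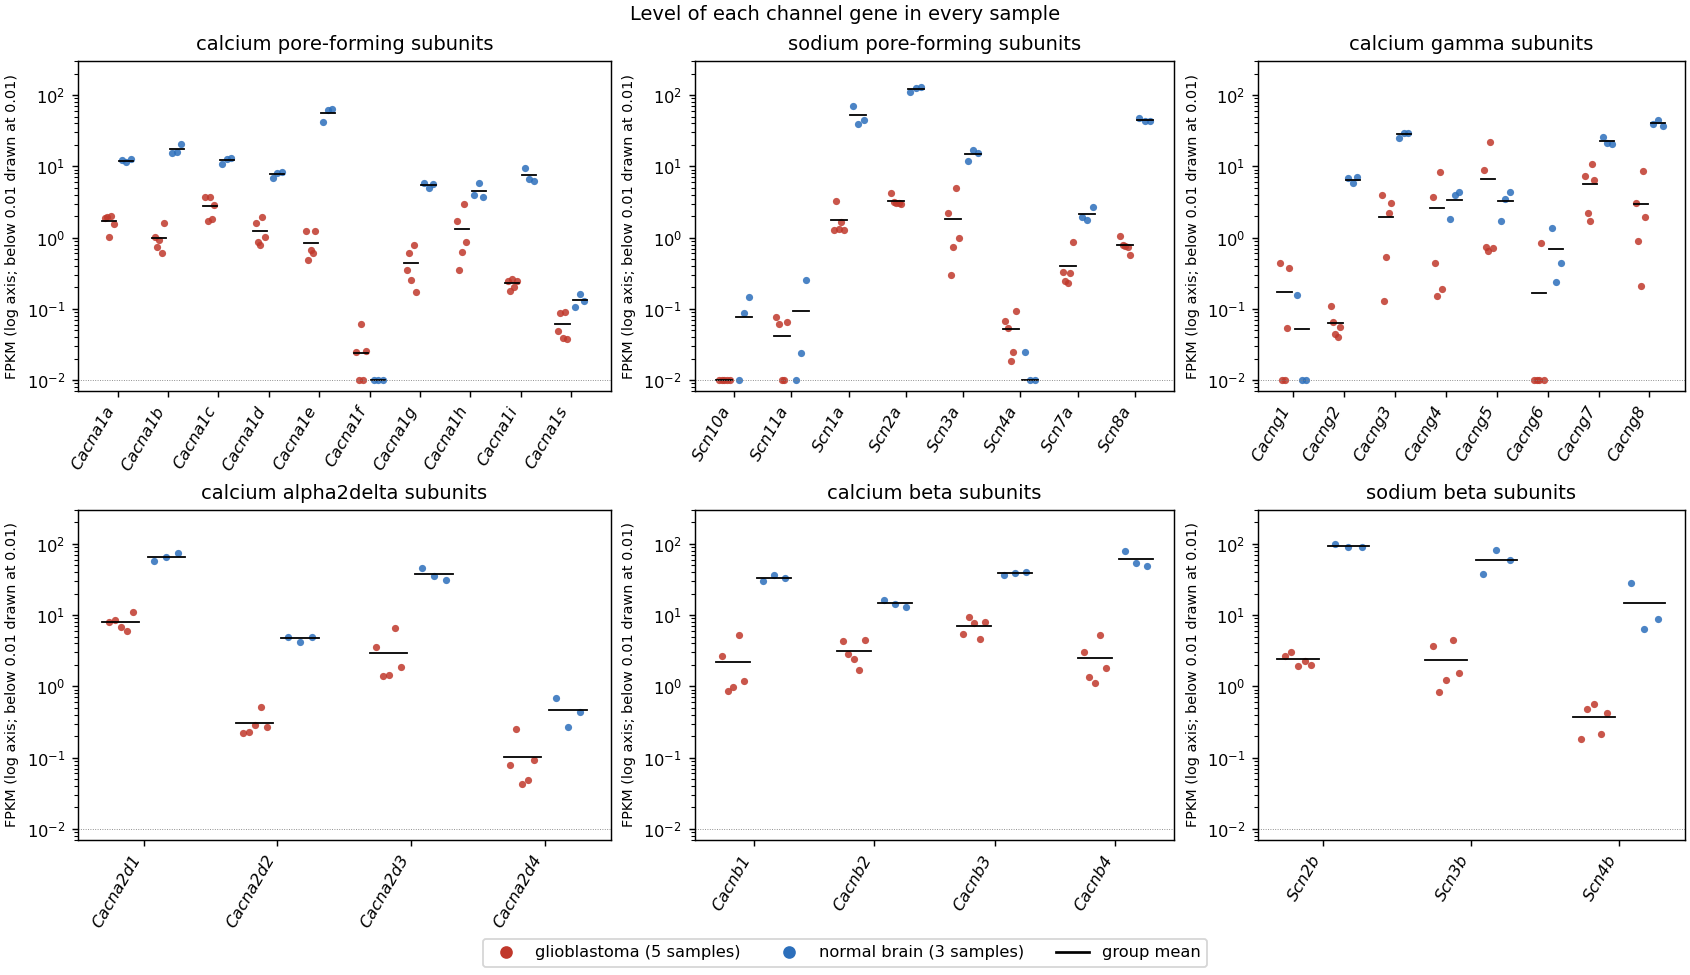
FPKM of the channel genes on a log axis, with the 5 tumours left of the 3 brains a point for each sample and a line at each group mean. Values below 0.01 are drawn at 0.01. For 28 of the 30 tested genes every tumour lies below every brain.

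The make-up of the calcium pores differed between tumour and brain. Of the summed pore FPKM, Cacna1e made up 8.70% ± 2.89 in tumours (SD, n = 5) and 45.0% ± 4.59 in brains (SD, n = 3), where it was the largest component of every brain. Cacna1c made up 29.5% ± 10.4 in tumours and 9.95% ± 0.188 in brains. It was the largest component in tumours 1, 3 and 5, at 31.6%, 44.7% and 30.1%, while Cacna1a was largest in tumour 2 with 28.1% and Cacna1h in tumour 4 with 27.0%. These are shares of a total that was itself lower in the tumours, and they were not tested.

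The alpha2delta subunits, extracellular proteins that raise channel number at the membrane, were all lower. Their summed level was 11.7, 10.3, 8.54, 13.1 and 13.1 FPKM in tumours 1 to 5 and 109, 105 and 110 FPKM in the brains. Cacna2d1, the binding site of the gabapentinoid drugs, was at 7.89, 8.39, 6.78, 5.98 and 10.9 FPKM in tumours 1 to 5 and at 57.7, 65.6 and 73.5 FPKM in the brains (log2 fold change -3.03 ± 0.20; edgeR adjusted p = 3.8e-06). Tumours and brains were far apart. Cacna2d1 made up 71.5% ± 15.7 of alpha2delta FPKM in tumours (SD, n = 5) and 60.8% ± 7.13 in brains (SD, n = 3).

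Cacna2d3, an alpha2delta subunit linked to pain and hearing, was at 3.51, 1.40, 1.43, 6.55 and 1.84 FPKM in tumours 1 to 5 and at 45.6, 34.9 and 30.9 FPKM in the brains (log2 fold change -3.61 ± 0.51; edgeR adjusted p = 2.7e-04). Cacna2d2, also a gabapentinoid target and abundant in cerebellar Purkinje cells, was at 0.220 to 0.517 FPKM in tumours and 4.23 to 4.95 FPKM in brains (-3.87 ± 0.30; adjusted p = 7.8e-06). Cacna2d4, known from the retina, was low throughout, at 0.0424 to 0.249 FPKM in tumours and 0.269 to 0.683 FPKM in brains (-2.27 ± 0.58; adjusted p = 0.00678). Its highest tumour, tumour 2, lay just below its lowest brain, brain 2.

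All 4 calcium beta subunits, cytoplasmic proteins that carry the pore to the membrane, were lower. They summed to 15.5, 14.4, 12.1, 16.9 and 15.5 FPKM in tumours 1 to 5 and to 161, 144 and 136 FPKM in the brains, and the tumour mean was 10.1% of the brain mean. Cacnb4, the beta subunit disrupted in the ataxic lethargic mouse, was at 3.06, 1.34, 1.13, 5.30 and 1.80 FPKM in tumours 1 to 5 and at 78.6, 54.0 and 49.4 FPKM in the brains (log2 fold change -4.52 ± 0.52; edgeR adjusted p = 8.1e-05). Cacnb1, the beta subunit of skeletal muscle that is also found in brain, was at 2.70, 0.871, 0.972, 5.27 and 1.19 FPKM in tumours 1 to 5 and at 29.6, 35.9 and 33.5 FPKM in the brains (-4.12 ± 0.57; adjusted p = 2.3e-04). Tumours 1 and 4 were highest for both, and without tumour 4 the Cacnb1 value was -4.78.

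The other beta subunits fell less and were more even. Cacnb3, a partner of N-type channels, was at 5.49, 9.35, 7.63, 4.59 and 8.04 FPKM in tumours 1 to 5 and at 36.5, 39.5 and 39.6 FPKM in the brains (log2 fold change -2.45 ± 0.22; edgeR adjusted p = 1.7e-05). Here tumours 1 and 4 were lowest. Cacnb2, the main beta subunit of heart, was at 4.29, 2.85, 2.38, 1.70 and 4.46 FPKM in tumours 1 to 5 and at 16.4, 14.1 and 13.1 FPKM in the brains (-2.21 ± 0.31; adjusted p = 2.3e-04). Cacnb2 counts were not whole in 6 libraries, a sign that its fragments may have been shared with another transcript. Cacnb3 made up 48.5% ± 16.7 of beta FPKM in tumours (SD, n = 5) and 26.4% ± 3.39 in brains (SD, n = 3), and Cacnb4 made up 16.3% ± 9.50 in tumours and 41.0% ± 6.82 in brains.

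The gamma subunits varied most. Of 6 tested genes, Cacng2, Cacng3, Cacng7 and Cacng8 were lower, and Cacng4 and Cacng5 were not past the threshold. Their summed level was 27.3, 4.52, 3.29, 53.5 and 12.8 FPKM in tumours 1 to 5 and 102, 109 and 104 FPKM in the brains. Tumours 1 and 4 stood apart from tumours 2 and 3. Cacng2, or stargazin, the AMPA receptor auxiliary subunit lost in the stargazer mouse, was nearly undetected in the tumours. It was at 0.109, 0.0648, 0.0442, 0.0401 and 0.0558 FPKM in tumours 1 to 5, resting on 8 fragments in all, and at 6.77, 5.81 and 6.99 FPKM in the brains, resting on 373. The log2 fold change was -6.68 ± 0.30 (SE; edgeR adjusted p = 5.7e-07), -6.06 after all libraries were thinned to the smallest depth, and -5.36 and -2.82 with limma on log2(FPKM + 0.1) and log2(FPKM + 1).

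Cacng8, the AMPA receptor subunit that prevails in hippocampus, was at 3.05, 0.909, 0.207, 8.71 and 1.96 FPKM in tumours 1 to 5 and at 39.2, 45.1 and 37.0 FPKM in the brains (log2 fold change -3.62 ± 0.74; edgeR adjusted p = 0.00221), and its value without tumour 4 was -4.66. Cacng3, a close relative of stargazin in cortex, was at 3.97, 0.131, 0.538, 2.19 and 3.06 FPKM in tumours 1 to 5 and at 25.1, 29.3 and 29.7 FPKM in the brains (-3.76 ± 0.66; adjusted p = 9.1e-04). Cacng7, an atypical AMPA receptor subunit, was at 7.22, 2.22, 1.70, 10.9 and 6.45 FPKM in tumours 1 to 5 and at 26.2, 21.2 and 20.6 FPKM in the brains (-1.93 ± 0.53; adjusted p = 0.00983). In all 3 genes the tumours spread widely but stayed below the brains.

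Cacng4 and Cacng5 were the exceptions, with some tumours above the brains and some below. Cacng5, an atypical AMPA receptor subunit, was at 8.78, 0.751, 0.649, 22.3 and 0.714 FPKM in tumours 1 to 5 and at 1.74, 3.54 and 4.40 FPKM in the brains. Tumours 1 and 4 exceeded every brain, and tumours 2, 3 and 5 lay below every brain. The log2 fold change was 1.08 ± 1.23 (SE; 95% interval -1.92 to 4.08; edgeR adjusted p = 0.452), and -0.26 without tumour 4. Cacng4, an AMPA receptor subunit prominent in the developing brain, was at 3.73, 0.445, 0.152, 8.45 and 0.191 FPKM in tumours 1 to 5 and at 1.83, 4.02 and 4.30 FPKM in the brains. Only tumour 4 exceeded every brain, tumour 1 lay within their range, and tumours 2, 3 and 5 lay below. The log2 fold change was -0.29 ± 1.12 (SE; 95% interval -3.04 to 2.45; adjusted p = 0.825). Without tumour 4 it was -1.68, and it was 0.01 without tumour 3 and 0.02 without tumour 5. The intervals include several-fold changes in either direction.

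Markers of oligodendrocyte precursors were uneven in the same tumours. Their summed level was 197, 25.1, 40.2, 392 and 60.5 FPKM in tumours 1 to 5 and 69.8, 57.0 and 58.0 FPKM in the brains. Olig1, a transcription factor of the lineage, was at 44.5, 2.74, 1.99, 125 and 2.81 FPKM in tumours 1 to 5 and at 32.5, 21.7 and 20.8 FPKM in the brains. Sox10, a transcription factor shared by oligodendrocyte and Schwann cell lineages, was at 17.9, 0.832, 0.898, 38.4 and 2.24 FPKM in tumours 1 to 5 and at 8.70, 5.12 and 4.85 FPKM in the brains. Pdgfra, the growth factor receptor of the precursors, was at 117, 20.2, 35.8, 195 and 52.3 FPKM in tumours 1 to 5 and at 14.1, 17.3 and 18.5 FPKM in the brains. Tumours 1 and 4 were highest for all 3 markers. Of the 6 markers, Pdgfra was higher, Gpr17 was lower and Olig1, Olig2, Sox10 and Cspg4 were not past the threshold. Among Schwann cell markers, Cdh19 was at 14.4, 2.01, 2.41, 43.2 and 4.46 FPKM in tumours 1 to 5 and at 7.66, 6.48 and 4.27 FPKM in the brains, whereas Prx and Ncmap were lowest in tumour 4. Prx was at 1.44, 1.44, 2.45, 1.29 and 2.40 FPKM in tumours 1 to 5 and at 0, 0 and 0.087 FPKM in the brains. It was called higher (log2 fold change 5.79 ± 0.75; edgeR adjusted p = 1.6e-04). Ncmap was at 0.529, 0.426, 0.476, 0.129 and 1.56 FPKM in tumours 1 to 5. In the brains Ncmap was at 0.384, 0.439 and 0.519 FPKM, and it was not tested. The summed astrocyte markers were also highest in tumours 4 and 1, at 160, 125, 64.4, 325 and 95.2 FPKM in tumours 1 to 5 and 624, 687 and 661 FPKM in the brains. The part of these cell types in the levels of Cacng4 and Cacng5 was not tested.

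**Figure D3:**
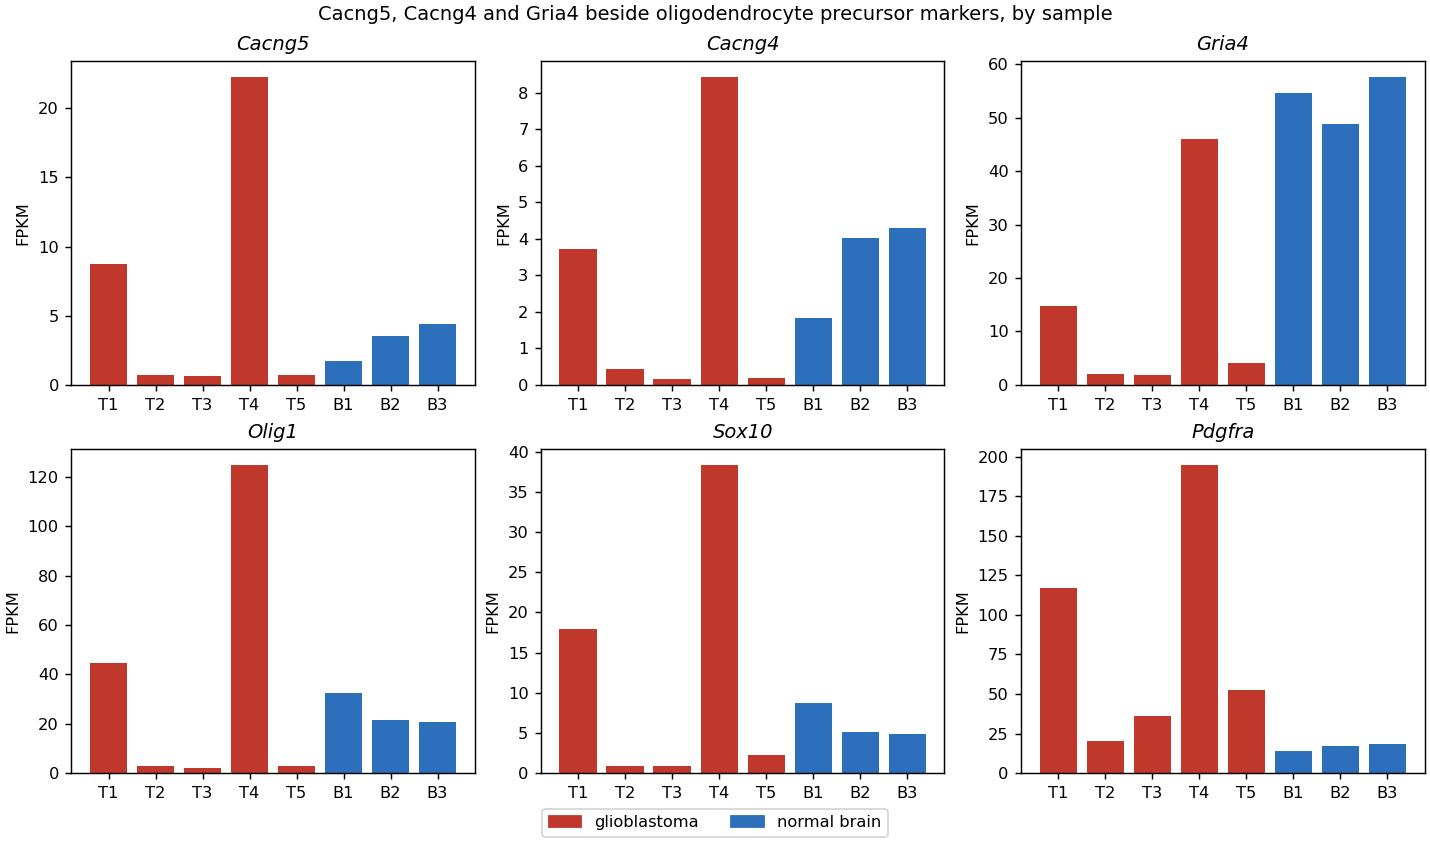
FPKM (linear axis from 0, scaled per panel) of Cacng5, Cacng4, the AMPA receptor subunit gene Gria4 and the oligodendrocyte precursor markers Olig1, Sox10 and Pdgfra, with a bar for each tumour (T) left of the brains (B). Cacng5 is at 8.78 FPKM in tumour 1 and 22.3 FPKM in tumour 4, where Olig1 and Sox10 also lie above the brains. Pdgfra lies above the brains in every tumour. The precursor marker Gpr17, which is not drawn, lies below the brains in every tumour.

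All 5 sodium channel pores tested and described were lower. Summed over the 8 sodium pores, tumours 1 to 5 had 9.23, 7.87, 6.17, 10.9 and 6.82 FPKM, and brains 1 to 3 had 244, 225 and 235 FPKM, so that the tumour mean was 3.49% of the brain mean. Scn2a, the pore of excitatory neurons and unmyelinated axons, was at 4.23, 3.18, 3.09, 3.11 and 2.96 FPKM in tumours 1 to 5 and at 111, 124 and 128 FPKM in the brains (log2 fold change -5.18 ± 0.16; edgeR adjusted p = 2.2e-07). The tumours were close to one another, with tumour 1 slightly above the rest. Scn8a, the pore of nodes of Ranvier and the distal axon initial segment, was at 1.07, 0.781, 0.757, 0.746 and 0.572 FPKM in tumours 1 to 5 and at 47.6, 42.8 and 43.7 FPKM in the brains (-5.82 ± 0.20; adjusted p = 2.2e-07), a 56.5-fold fall. Scn1a, the pore of fast-spiking inhibitory neurons whose human gene is mutated in Dravet syndrome, was at 1.26, 3.25, 1.34, 1.67 and 1.30 FPKM in tumours 1 to 5 and at 71.1, 39.5 and 45.1 FPKM in the brains (-4.88 ± 0.36; adjusted p = 6.9e-06). Tumour 2 and brain 1 were highest in their groups.

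Scn3a, the pore that prevails before birth, fell less. It was at 2.19, 0.298, 0.736, 5.04 and 0.977 FPKM in tumours 1 to 5 and at 11.9, 16.9 and 15.3 FPKM in the brains. Tumours 4 and 1 were highest, without overlap with the brains. The log2 fold change was -2.94 ± 0.74 (SE; edgeR adjusted p = 0.00624), and -3.78 without tumour 4. Scn3a made up 23.7%, 3.78%, 11.9%, 46.2% and 14.3% of sodium pore FPKM in tumours 1 to 5 and 4.88%, 7.49% and 6.5% in the brains, so that it was the largest component of tumour 4, while Scn2a made up 41.6% ± 8.17 in tumours (SD, n = 5) and 51.7% ± 5.35 in brains (SD, n = 3).

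Scn7a, which encodes the sodium-sensing channel of glia, was at 0.328, 0.244, 0.233, 0.317 and 0.861 FPKM in tumours 1 to 5 and at 1.97, 1.75 and 2.67 FPKM in the brains (log2 fold change -2.37 ± 0.44; edgeR adjusted p = 0.00126). Tumour 5 was highest of the tumours and still below every brain.

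**Figure D4:**
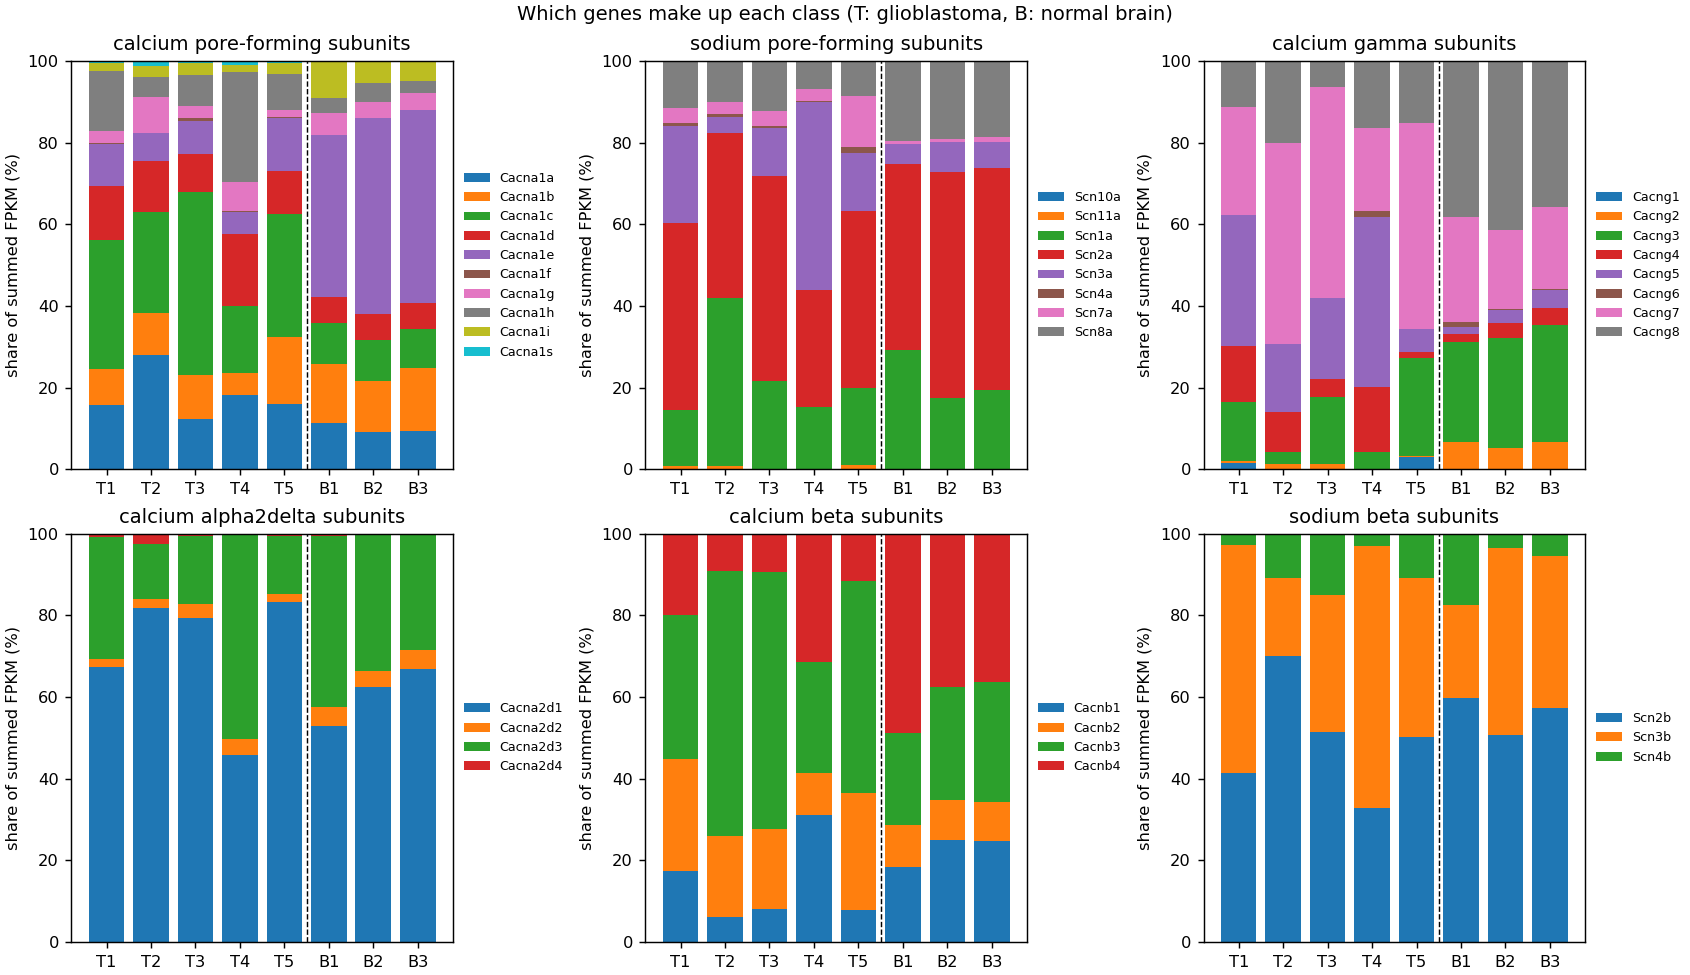
Share of the summed FPKM of a role held by each member, as stacked bars from 0 to 100% for each sample, tumours left of brains. Cacna1e is the largest calcium pore component in every brain and Cacna1c in tumours 1, 3 and 5.

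Sodium beta subunits, cell adhesion proteins that attach to the pore, had the lowest median of the roles as described here. The 3 genes summed to 6.48, 4.39, 3.71, 6.90 and 3.94 FPKM in tumours 1 to 5 and to 164, 177 and 158 FPKM in the brains. Scn2b, which is linked to the pore by a disulfide bond, was nearly level among tumours at 2.68, 3.07, 1.91, 2.26 and 1.98 FPKM and was at 97.8, 89.8 and 90.9 FPKM in the brains (log2 fold change -5.28 ± 0.18; edgeR adjusted p = 2.2e-07). Scn4b, which supports resurgent sodium current and also binds by a disulfide bond, was at 0.181, 0.474, 0.558, 0.213 and 0.426 FPKM in tumours 1 to 5 and at 28.6, 6.33 and 8.75 FPKM in the brains (-5.30 ± 0.57; adjusted p = 5.5e-05). Brain 1 stood well above the other brains, and the Scn4b value without it was -4.34. Brain 1 was also highest for oligodendrocyte markers, at a summed 657 FPKM against 326 and 359 FPKM in brains 2 and 3, and what this has to do with Scn4b was not tested.

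Scn3b, which binds the pore without a covalent bond, was at 3.62, 0.838, 1.24, 4.43 and 1.54 FPKM in tumours 1 to 5 and at 37.2, 81.1 and 58.8 FPKM in the brains (log2 fold change -4.62 ± 0.55; edgeR adjusted p = 9.8e-05). Scn3b counts were not whole in 5 libraries. Tumours 1 and 4 were highest, and every tumour lay below every brain.

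Tumours differed from one another more than brains did. The median SD of log2 CPM (counts scaled to library depth) of the tested channel genes was 0.610 among tumours and 0.181 among brains, against 0.379 and 0.154 over all tested genes, and 28 of the 30 channel genes had the larger SD in tumours, against 85.1% of all tested genes. On that scale tumour 4 was the highest tumour for 14 of the 30 genes, tumour 3 the lowest for 10 and tumour 2 the lowest for 9. These ranks were not counted over all tested genes, so they cannot be called a trait of the channel genes. The median log2 difference from the brain mean was -3.46, -4.33, -4.25, -3.0 and -3.87 in tumours 1 to 5. On the log2 CPM scale, tumours 1 and 4 were both above the other tumours for 12 of the 30, named after their values were seen, against 22.1% of all tested genes. These were Cacna1d, Cacna1h, Cacna2d3, Cacnb1, Cacnb4, Cacng4, Cacng5, Cacng7, Cacng8, Scn2a, Scn3a and Scn3b. Scn2a was counted by a small margin, with log2 differences of -5.23 in tumour 4 and -5.26 in tumour 2. In FPKM its tumour 4 lay below tumour 2, at 3.11 against 3.18.

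**Figure D5:**
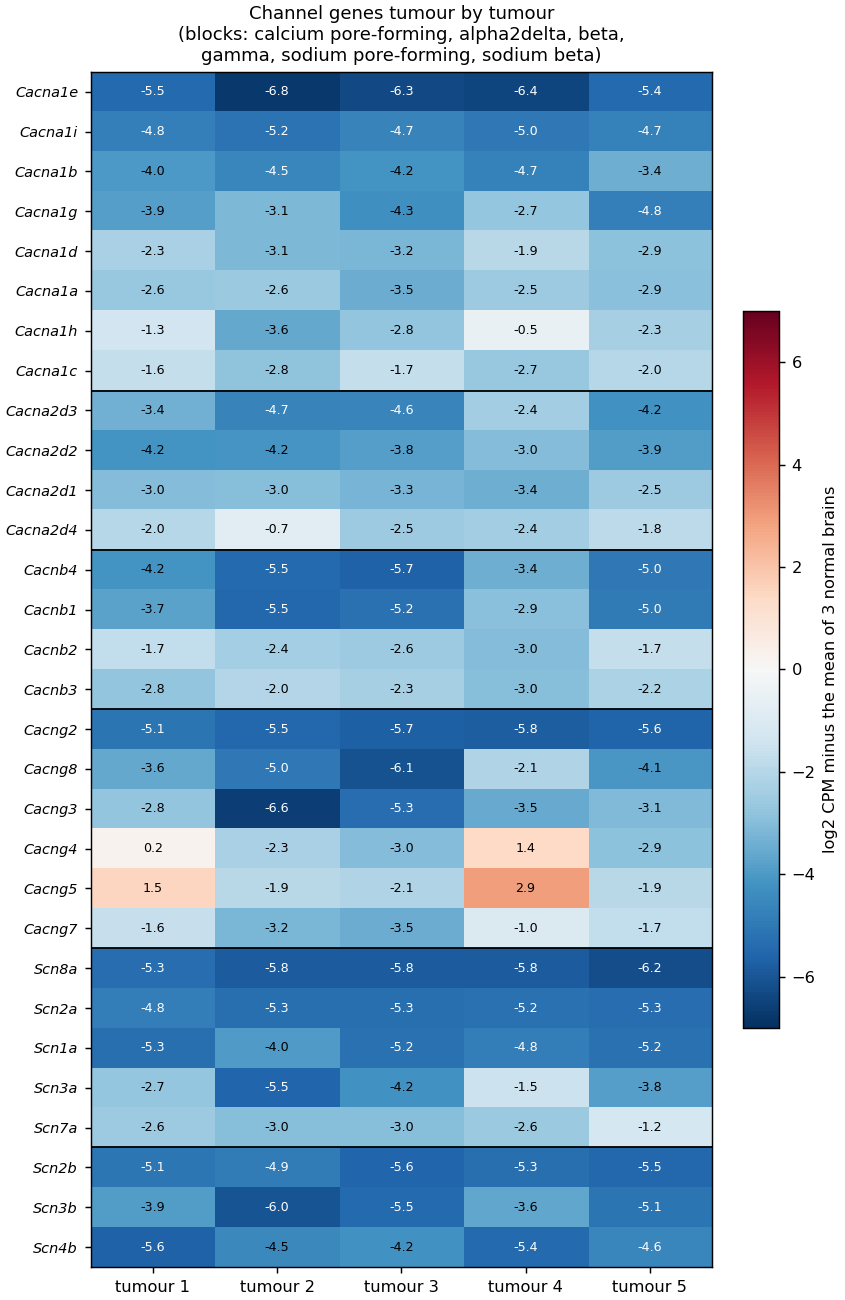
Log2 difference of each tumour from the brain mean (log2 CPM) for the 30 tested channel genes, by role. The cells above 0 are those of Cacng4 and Cacng5 in tumours 1 and 4.

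The 7 genes that did not pass the filter held 7 to 37 fragments over all 8 libraries. Cacna1f, the L-type pore of photoreceptors, held 7 fragments in tumours and 0 in brains, where 0 fragments allow up to 0.140 CPM. Its mean was 0.024 FPKM in tumours and 0 in brains. Cacna1s, the pore of skeletal muscle, held 20 in tumours and 17 in brains. Its mean was 0.0606 FPKM in tumours and 0.132 FPKM in brains, and every tumour lay below every brain. Cacng1 and Cacng6, gamma subunits of skeletal muscle, held 9 in tumours against 1 in brains and 9 in tumours against 8 in brains. All 9 tumour fragments of Cacng6 came from tumour 4. Mean FPKM in tumours and brains was 0.173 and 0.0531 for Cacng1 and 0.166 and 0.683 for Cacng6. Scn4a, the sodium pore of skeletal muscle, held 17 fragments in tumours and 1 in brains, with means of 0.0521 and 0.00831 FPKM. Of 6 skeletal muscle markers, Ckm was at 0 in every sample and Myh4 held 0 fragments in tumours and 12 in brains. Acta1 held 40 fragments in tumours and 133 in brains and was called lower. Mylpf held 33 in tumours and 11 in brains, Tnnt3 13 in tumours and 3 in brains, and Myog 3 in tumours and 0 in brains. Mean FPKM in tumours and brains was 0.682 and 4.93 for Acta1, 1.24 and 0.929 for Mylpf, and 0.298 and 0.191 for Tnnt3. Scn10a and Scn11a, pores of pain-sensing neurons, held 1 and 10 fragments in tumours and 11 and 12 in brains. Their means were 0.00173 and 0.0412 FPKM in tumours and 0.078 and 0.0924 FPKM in brains.

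For members that lie side by side in the genome, estimated fold changes were close in some pairs and further apart in others. By gene order in the RefSeq annotation of GRCm38, with 0 protein-coding genes between neighbours, Cacng1, Cacng4 and Cacng5 are adjacent on chromosome 11, Cacng7, Cacng8 and Cacng6 on chromosome 7, Scn3a and Scn2a on chromosome 2, Scn2b and Scn4b on chromosome 9, and Scn10a and Scn11a also on chromosome 9. Neighbours Scn2b and Scn4b had log2 fold changes of -5.28 and -5.30, whereas neighbours Scn3a and Scn2a had -2.94 and -5.18. Cacng7 and Cacng8 had -1.93 and -3.62, with overlapping 95% intervals of -3.22 to -0.64 and -5.44 to -1.8. Cacng4 and Cacng5 had -0.29 and 1.08, neither past the threshold, and both were highest in tumours 4 and 1. The differences between neighbours were not tested.

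Promoter windows were listed for 29 of the 37 genes, 40 windows in all. CpG-rich windows, defined by at least 50% G and C and an observed over expected CpG ratio of at least 0.6, made up 42.5% of them and 33.5% of all 32851 windows in the table. Among tested members, the 16 with at least 1 CpG-rich window had a median log2 fold change of -3.74 and 15 were lower, and the 7 without had a median of -4.88 and 7 were lower. Scn8a and Scn2b, whose sequences are printed above, had -5.82 and -5.28. The letters TCAGCACC, part of the element bound by the repressor REST, occurred on either strand in 0 of the 40 windows and in 1.65% of all windows. The letters GGACAGC, from another part of that element, occurred in 2 of 40 windows, those of Cacnb1 and Cacng6 (5.0%), and in 6.56% of all. With 40 windows, these counts are too small to set the members apart from all windows. Sequence outside the windows, and genes without a window, were not searched. Rest itself was at 18.5, 21.4, 27.7, 9.41 and 25.1 FPKM in tumours 1 to 5 and at 1.53, 1.28 and 1.31 FPKM in the brains (3.90 ± 0.38; edgeR adjusted p = 2.9e-05). Tumour 4 had the lowest Rest level of the tumours. The part of Rest in the channel levels was not tested.

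Genes whose products bind the channels or work beside them were mostly lower, with the inhibitors among the exceptions. Over all tested genes, 33.9% were called lower and 37.1% higher. Of the intracellular fibroblast growth factor homologues that bind sodium pores, Fgf12, Fgf13 and Fgf14 were lower, led by Fgf12 (log2 fold change -4.76 ± 0.41), and Fgf11 had -1.97 ± 0.86 and was not past the threshold. Of 5 genes of the axon initial segment and node, where sodium channels are anchored, 4 were lower, led by Sptbn4 (-4.44 ± 0.16). Nrcam was not past the threshold (-0.44 ± 0.58). It was at 169, 53.6, 24.5, 156 and 50.3 FPKM in tumours 1 to 5 and at 112, 128 and 130 FPKM in the brains. All 5 genes of the presynaptic release site were lower, among them the vesicle priming factor Unc13a (-6.13 ± 0.22) and Rimbp2, whose product links calcium channels to the release machinery (-5.99 ± 0.48). All 4 genes of the sodium leak channel complex that had a row were lower, led by Unc80 (-5.23 ± 0.22). Of 7 AMPA receptor genes and partners of the gamma subunits, 6 were lower. Gria4, an AMPA receptor pore subunit, was at 14.7, 1.96, 1.93, 46.1 and 4.19 FPKM in tumours 1 to 5 and at 54.7, 48.8 and 57.7 FPKM in the brains, and with -1.51 ± 1.02 it was not past the threshold.

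The RGK GTPases bind calcium beta subunits and reduce calcium current. Of 3 tested, Rrad (log2 fold change 3.61 ± 0.52) and Gem (3.34 ± 0.41) were higher in the tumours, 0 were lower and Rem2 was not past the threshold. Of 2 tested Stac adaptors, which bind L-type channels, Stac2 was lower (-1.84 ± 0.41) and Stac was not past the threshold (0.89 ± 0.67). Among more distant relatives, the endolysosomal cation channels Tpcn2 (2.52 ± 0.35) and Tpcn1 (1.06 ± 0.38) were higher. So was the proton channel Hvcn1 (2.42 ± 0.26), known from microglia and other immune cells, beside the 6 microglia and macrophage markers that were higher. For Tpcn1 the groups overlapped. Tumour 4 was at 2.31 FPKM, below the brains at 2.89 to 3.23 FPKM, and the other tumours were at 6.37 FPKM or above. What those cells contribute to the levels was not tested.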

How the data were processed

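RNA-seq of 5 mouse glioblastomas and 3 normal mouse brains was analysed, with groups taken from the tissue in the labels and replicate numbers from accession order, which pair no samples. The authors deposited a table of estimated counts of fragments and of FPKM for 30967 RefSeq transcript accessions in each library, per the file headers. STAR 2.3.0e, Cuffdiff 2.1.1 and mm9 are named in the submitters' processing notes. Settings, annotation and strand handling are not stated there.

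Symbols came from RefSeq for 30474 accessions and GENCODE for 178, and 315 accessions with 0.507% of fragments kept their own identifiers. Estimated counts were added up over the accessions of a gene and then rounded, which removes the splitting of fragments between accessions of a gene. FPKM were summed per gene for levels. Counts of 2 members, Cacnb2 and Scn3b, were not whole within 0.01. A further symbol matching the naming rule had no accession matched to it and was not analysed here, and 2 genes that match the rule are not reported here. In a single library 3 fragments equal 0.193 to 0.546 CPM. All pairs of replicates differed by more than sampling noise (lowest chi-square over its degrees of freedom, 4.96). Intervals cover the spread between samples only.

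The main test was edgeR 4.0.16 (TMM factors, default filter on low counts, robust quasi-likelihood F test) with Benjamini-Hochberg adjustment over 14641 genes at 0.05. SE were derived from the F statistic, 95% intervals used 6 degrees of freedom and log2 CPM a prior count of 2. Every ± on a log2 fold change is an SE. In simulated data with 200 changed genes among 14402, 71.7% of 4-fold and 9.18% of 2-fold changes were recovered and 5.88% of calls were false. The simulated share of changed genes was far below the 71.0% called in the data, so these rates may not carry over. Alternatives were DESeq2 1.42.0, RLE factors, library size only, no filter, 5 CPM in 3 samples, limma 3.58.1 on log2(FPKM + 1) and log2(FPKM + 0.1), each library left out, thinning to the smallest depth, and leaving out members with counts that were not whole. Promoter windows came from RefSeq on GRCm38.p6, a build other than that of the files. Every tested member was named, and other genes came from lists of binding partners and cell type markers. The members and lists were chosen with earlier results of these data known. R 4.3.3, pandas 2.3.3 and matplotlib 3.10.9 were used.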

Additional observations from a re-analysis of the deposited data

Results flagged for a closer look

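Among the 30 tested channel genes, 2 had a tumour far from the other 4 on the log2 CPM scale, judged by its gap to the nearest tumour as a share of the range of the tumours. Chance alone marks about 1 in 20 groups of samples. For Scn2a, tumour 1 was the highest and its gap was 0.847 of the range, yet the tumours spanned little. The log2 differences from the brain mean were -4.82, -5.26, -5.27, -5.23 and -5.31 in tumours 1 to 5. For Scn7a, tumour 5 was the highest with a gap of 0.751 of the range, and the log2 differences were -2.56, -2.98, -3.0, -2.58 and -1.22 in tumours 1 to 5.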

How the results depend on the processing

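The counts of channel genes called lower or higher, over all members, pore-forming and auxiliary genes, stayed within 1.5 times the reported counts under every alternative. Between 26 and 29 members were lower and 0 were higher, with 26 where the members with counts that were not whole were left out. Without the filter on low counts all 37 members were tested and Scn10a, with 12 fragments, was also lower. Its fragments were 0, 4 and 7 in brains 1 to 3, and the groups overlapped. Scaling by library size alone moved the median log2 fold change of all tested genes to 0.20, against 0.06 with TMM factors, and Cacna1h was then -1.56 (adjusted p = 0.0531). Cacna1h also lost its call without tumour 3 or 5 or brain 1 or 2. The direction changed only for the 2 genes that were not past the threshold. With 1 library left out, Cacng4 ranged from -1.68 to 0.02 (0.01 and 0.02 without tumours 3 and 5) and Cacng5 from -0.26 to 1.37. Under limma on log2(FPKM + 0.1) Cacng5 was -0.30 and it was -0.26 without tumour 4. The cause was not tested. With limma on log2(FPKM + 1) the folds of scarce genes shrank by construction, to -2.82 for Cacng2. Of the fold changes of single genes recomputed, 467 kept direction and side of the threshold, 5 lost the call and 4 reversed. Cacna2d4 and Cacng4 did not pass the filter in 3 and 1 of the alternatives. No paired analysis was possible because the replicate numbers follow accession order and pair nothing.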
